A study of Mus musculus with 114 samples.

Results

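Aminoacyl-tRNA synthetases were followed in ribosome-bound RNA of PV interneurons and pyramidal neurons of the mouse prefrontal cortex. The members are the rows of the count table whose Ensembl identifier maps to 35 named genes, 20 for cytosolic enzymes and 15 for mitochondrial enzymes, the latter with symbols that end in 2. Of these, 34 were found among 13101 gene identifiers, all 20 cytosolic and 14 mitochondrial. Wars2 was not analysed here. All 34 passed the filter on low counts that left 13053 genes to test.

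Each synthetase joins an amino acid to its tRNA, and the charged tRNA is what a ribosome reads. Proteins encoded in the nucleus are made in the cytosol with the cytosolic enzymes. The few proteins encoded in mitochondrial DNA, all parts of the respiratory chain, are made inside mitochondria with a separate set of enzymes that is imported. Most amino acids have a gene for each compartment, while Kars and Gars each encode a form for both. Several cytosolic enzymes sit in a multisynthetase complex held together by the scaffold proteins Aimp1, Aimp2 and Eef1e1. Neurons depend on these enzymes in their long axons: mutations of GARS and YARS cause inherited neuropathy in humans, and mutations of several mitochondrial synthetases cause disease of brain white matter, the ovary or hearing.

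The mice carried the Ribo-tag genotype, in which chosen cells carry tagged ribosomes that can be pulled down from a lysate with the RNA bound to them. Brain tissue of females and males was taken at zeitgeber time (ZT, hours after lights on) 2, 6, 10, 14, 18 and 22, with 4 or 5 libraries for each sex and time in each cell population. All groups share the genotype, and the Cre driver and the age of the mice were not given in the sources used here. The title prefix of a library (PV or C) and its cell type entry name opposite cell types throughout, so libraries are called PV-titled (n = 55) and C-titled (n = 58) after their titles.

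The library totals ran from 19.1 to 44.1 megacounts on genes. Their median was 25.72 megacounts for the PV-titled group against 34.42 for the C-titled one. The median share of counts on no gene was 61.19% against 52.81%. The correlation of a library with the rest of its prefix had a median of 0.941 against 0.979. What these differences add to the comparisons of prefixes and of rhythm below was not tested. By median correlation with the rest of their prefix, 8 libraries stood apart, 5 C-titled ones at ZT2 or ZT6 and 3 PV-titled ones at ZT10, ZT14 and ZT22. Markers sided with the titles: 7 of 7 PV interneuron and 5 of 5 GABAergic markers were higher and 6 of 6 pyramidal markers lower in PV-titled libraries. Markers of other cells were higher there too, 6 of 6 for astrocytes, 5 of 5 for oligodendrocytes, 6 of 6 for microglia and 7 of 7 for endothelial and mural cells. The summed astrocyte markers ranged from 787.1 to 1372 CPM (counts per megacount of a library, after scaling) in PV-titled libraries, against 217.5 to 894.1 CPM in the C-titled group. The sums were 213.2 to 699.6 against 129.2 to 323.2 CPM for oligodendrocytes, 110.6 to 217.7 against 26.55 to 65.34 CPM for microglia and 58.99 to 217.7 against 6.988 to 60.93 CPM for endothelial and mural cells. No glial or vascular marker stood at 0 in any C-titled library. The part of these cells in the differences between prefixes below was not tested.

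Most cytosolic synthetases were lower in the PV-titled libraries. Of 20 cytosolic members 14 were lower and 6 higher, where 43.2% of all genes tested were lower and 44.3% higher. Their median log2 difference (PV-titled minus C-titled) was -0.51, against 0.01 over all genes. TMM scaling moves the median of all genes by 0.20. Without that scaling 11 were lower and 6 higher, a setting whose shares of all genes are not given here. With and without scaling 14 lay below the median of all genes. Without the 8 libraries that stand apart 14 were lower and 4 higher, beside 44.5% and 44.3% of all genes. In such bulk samples, fewer cells of a type and less RNA per cell cannot be told apart. No member of either kind passed a test for a difference of at least 2-fold, which 17.96% of all genes passed upward and 4.54% downward.

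Hars (ENSMUSG00000001380, GRCm38 chromosome 18, 36766528 to 36783205), the cytosolic histidine enzyme, stood at 77.91, 110.2 and 143.7 CPM (lowest, median and highest) in PV-titled libraries and at 159.04, 200.4 and 273.2 CPM in C-titled ones. The libraries of the 2 prefixes did not overlap, which held for 1 of the 34 members. The share of all genes without overlap is not given here, so this is not read as unusual. The level was 1.85-fold higher in C-titled libraries (log2 -0.89, SE 0.03, adjusted p = 3.54e-48). Yars (ENSMUSG00000028811, chromosome 4, 129189760 to 129219607), the tyrosine enzyme, stood at 51.92, 73.39 and 130.2 CPM in PV-titled against 106.8, 130.6 and 170.1 CPM in C-titled libraries. It was lower in 55 of 55 PV-titled libraries than the C-titled median, and 1 of them lay above the lowest C-titled library (log2 -0.80, SE 0.04, adjusted p = 1.21e-41).

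Nars (ENSMUSG00000024587, chromosome 18, 64499647 to 64516652), which charges asparagine tRNA, stood at 163.6, 215.4 and 305.8 against 270.5, 346.2 and 485.5 CPM (log2 -0.70, SE 0.03, adjusted p = 5.21e-40). Gars (ENSMUSG00000029777, chromosome 6, 55038007 to 55079500), which charges glycine tRNA, stood at 69.92, 105.5 and 150.6 against 114.9, 180.6 and 225.97 CPM (log2 -0.81, SE 0.04, adjusted p = 6.6e-39). Aars (ENSMUSG00000031960, chromosome 8, 111033144 to 111057664), the alanine enzyme, stood at 95.69, 143.8 and 236.6 against 194.5, 232.3 and 284.4 CPM (log2 -0.67, SE 0.03, adjusted p = 1.08e-37), with 14.3% of its exon bases shared with Exosc6 on the same strand. In all 3 genes nearly every PV-titled library lay below the C-titled median (55, 55 and 54 of 55). The ranges overlapped: 3 PV-titled libraries for Nars, 13 for Gars and 2 for Aars lay above the lowest C-titled one. The lowest estimate of the cytosolic set was that of the tryptophan enzyme Wars (log2 -0.95, SE 0.05, 1.94-fold). Among lower members of either kind 13 had 50 or more PV-titled libraries below the C-titled median, a count not given here for all genes.

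The exceptions among cytosolic enzymes were Mars1 for methionine (log2 0.47, SE 0.04), Farsa, the alpha subunit of the phenylalanine enzyme (0.44, SE 0.05), and Vars for valine (0.42, SE 0.06). Eprs, a fused enzyme for glutamate and proline, was higher by 0.20 (SE 0.04). The 3 members with the largest p were Lars for leucine (log2 0.10, SE 0.05, adjusted p = 0.0408), Iars for isoleucine (0.12, SE 0.06, adjusted p = 0.0404) and Cars for cysteine (-0.13, SE 0.04, adjusted p = 0.00187). Cars turned to 0.08 without TMM scaling and did not pass in the second range of library numbers alone (-0.07, adjusted p = 0.228). Without those 8 libraries Lars and Iars no longer passed (adjusted p = 0.124 and 0.193), and Iars had the opposite sign in the first range of library numbers (log2 -0.05 against 0.30 in the second). In all 29 of the 34 members passed in either direction, beside 87.5% of all genes, and 28 of them kept their sign in both number ranges. Part of the Iars transcript, 1656 bases, is 96.0% identical to the pseudogene Gm4849, and 68 exon bases of Mars1 overlap Ddit3.

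**Figure D1:**
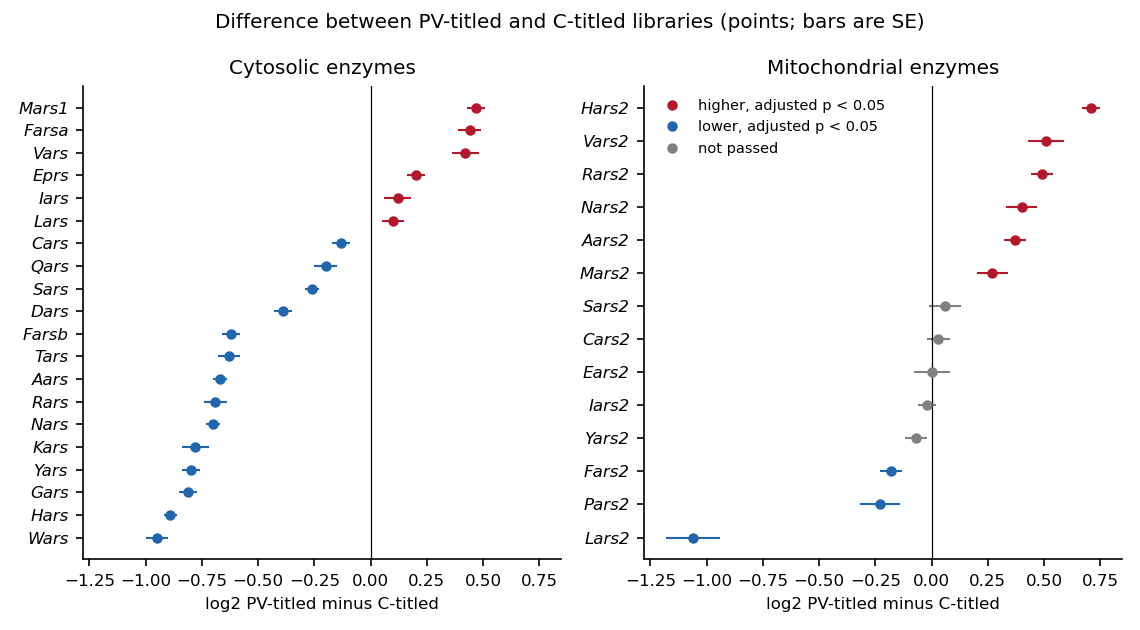
Log2 difference between PV-titled and C-titled libraries (x axis) for the 20 cytosolic (left) and 14 mitochondrial (right) enzymes, as points with bars of 1 SE. Cytosolic enzymes reach down to -0.95 at Wars with 6 to the right of 0, while mitochondrial enzymes lie on both sides, from -1.06 at Lars2 to 0.71 at Hars2.

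The phenylalanine enzyme is built from alpha and beta subunits, encoded by Farsa and Farsb, which differed in opposite directions. Farsb stood at 39.40, 56.26 and 87.94 CPM in PV-titled against 50.29, 85.94 and 100.7 CPM in C-titled libraries (log2 -0.62, SE 0.04). Farsa stood at 42.83, 67.60 and 104.2 against 29.30, 51.78 and 61.22 CPM. Within a library the ratio of Farsa to Farsb, each per kilobase of exon, had a log2 of -1.76, -0.52 and 0.32 (lowest, median and highest) in PV-titled libraries, and of -1.97, -1.54 and -1.23 in C-titled ones. In 53 of 55 PV-titled libraries the ratio was above that of every C-titled library. This ratio does not depend on the scaling between libraries, though 9.47% of the exon bases of Farsb overlap Sgpp2 on the other strand.

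Beside 43.2% of all genes lower and 44.3% higher, 4 of the 8 synthetases of the multisynthetase complex were lower (Kars -0.78, Rars -0.69, Dars -0.39 and Qars -0.20 in log2) and 4 higher (Mars1, Eprs, Iars and Lars), with a median of -0.05, and without the 8 libraries that stand apart 2 were higher. Of the 12 cytosolic enzymes outside it 10 were lower, with a median of -0.65. All 3 scaffold genes were lower, Aimp2 by -0.94 (SE 0.05), Aimp1 by -0.72 (SE 0.05) and Eef1e1 by -0.40 (SE 0.05) in log2. The cytosolic elongation factors, which bring charged tRNA to the ribosome and move it along, were lower in 6 of 6 genes (median log2 -0.77). Among them Eef1a1 was at a log2 of -0.87 (SE 0.05), Eef1b2 at -0.92 (SE 0.06), Eef2 at -0.67 (SE 0.05) and Eef1a2 at -1.58 (SE 0.10).

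**Figure D2:**
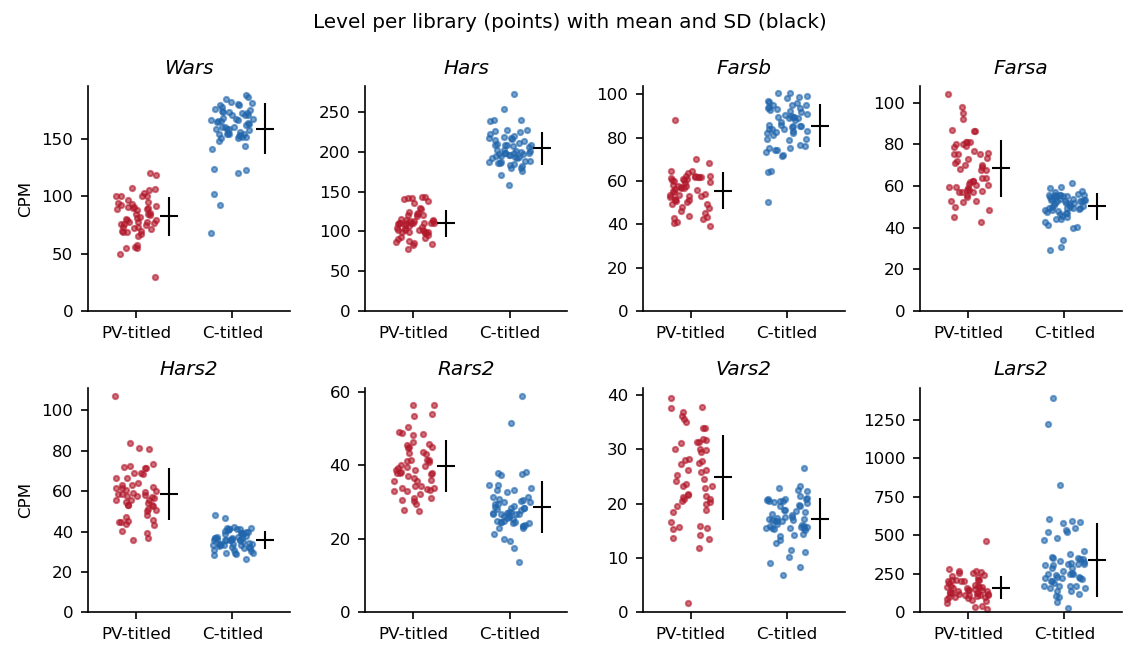
CPM (y axis) of 8 enzymes in each PV-titled (red) and C-titled (blue) library, with the mean and SD in black. The Hars libraries do not overlap between prefixes, a share not given here for all genes, and Farsa and Farsb shift in opposite directions. Lars2 spans 28.81 to 1392 CPM in C-titled libraries, and both ends are libraries that stand apart.

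Several cytosolic synthetase genes are known targets of ATF4, a transcription factor of amino acid shortage that binds CARE elements, joint sites for C/EBP and ATF proteins. The RefSeq promoter windows (GRCm38.p6, 250 bases before to 50 after the start of the gene) were searched on both strands for the CARE letters TGATGNAA, the E-box CACGTG, to which clock activators bind, and the NRF1 core CGCATGCG, a site of nuclear genes for mitochondria. Windows were held for 13 cytosolic and 12 mitochondrial members of the table, and not for Cars, Hars, Lars, Nars, Rars, Vars, Wars, Hars2 and Pars2. CARE letters were found in 5 of the 13 cytosolic windows (Aars, Gars, Iars, Tars and Yars) and in 0 of the 12 mitochondrial ones, against 3.97% of 32851 windows of all genes. E-box letters were found in 4 and 1 (7.15% of all windows), and the NRF1 core in 0 and 1, Vars2 (1.87%). The stretches around CARE matches and the NRF1 core of Vars2 are shown because members with CARE can be read against the differences above. A further CARE match of Aars after its start and the E-boxes of Farsb, Iars, Tars and Ears2 are not shown. Capitals mark the matches, and each stretch is written 5′ to 3′ on the strand of the gene.
Aars, chr8:111033692-111033841, plus strand: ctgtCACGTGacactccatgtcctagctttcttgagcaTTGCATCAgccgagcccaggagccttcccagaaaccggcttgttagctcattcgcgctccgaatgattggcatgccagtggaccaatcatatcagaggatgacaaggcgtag
Gars, chr6:55037851-55038000, plus strand: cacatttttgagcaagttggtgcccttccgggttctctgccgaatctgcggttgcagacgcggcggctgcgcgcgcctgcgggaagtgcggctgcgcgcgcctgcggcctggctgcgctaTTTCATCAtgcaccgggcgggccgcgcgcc
Tars, chr15:11399659-11399808, minus strand: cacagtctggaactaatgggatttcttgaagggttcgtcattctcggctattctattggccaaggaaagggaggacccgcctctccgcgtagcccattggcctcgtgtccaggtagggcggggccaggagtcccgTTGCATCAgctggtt
Iars, chr13:49682126-49682155, plus strand: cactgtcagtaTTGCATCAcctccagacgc
Yars, chr4:129189895-129189924, plus strand: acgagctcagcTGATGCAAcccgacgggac
Vars2, chr17:35667593-35667742, minus strand: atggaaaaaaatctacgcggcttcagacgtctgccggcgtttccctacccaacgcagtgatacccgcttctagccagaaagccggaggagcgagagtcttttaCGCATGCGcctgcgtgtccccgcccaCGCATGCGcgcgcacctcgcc

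In Aars the capitals are an E-box and a CARE match, in Vars2 a repeated NRF1 core, and in the others a CARE match. Of the 5 cytosolic members with CARE letters 4 were lower and 1 higher in PV-titled libraries, with a median log2 of -0.67 and a range of -0.81 to 0.12. Of the 8 whose windows lack them 5 were lower and 3 higher, with a median of -0.23 and a range of -0.78 to 0.47. The ranges overlap almost wholly, and no test was made. The 7 cytosolic members without a searched window are in neither group. Of them Wars, Hars, Nars, Rars and Cars were lower, and Lars and Vars higher. Wars and Hars had the lowest estimates of the cytosolic set. Among all genes tested 43.2% were lower and 44.3% higher.

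Mitochondrial synthetases showed no common direction. Of 14 members 6 were higher, 3 lower and 5 did not pass, with a median log2 difference of 0.05, beside 44.3% higher and 43.2% lower among all genes. Without TMM scaling 11 were higher and 1 lower, and relative to the median of all genes 6 lay below it under either scaling. The median of all genes was 0.21 without scaling. The shares of all genes called there are not given here, so 44.3% and 43.2% do not apply to those counts. The higher members were Hars2, Vars2, Rars2, Nars2, Aars2 and Mars2, and the lower ones Lars2, Pars2 (log2 -0.23, SE 0.09) and Fars2 (-0.18, SE 0.05), of which Fars2 changed sign without scaling (0.02).

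Hars2 (ENSMUSG00000019143, chromosome 18, 36783008 to 36792562), the mitochondrial histidine enzyme, stood at 35.74, 57.65 and 107.3 CPM in PV-titled against 26.67, 35.91 and 48.11 CPM in C-titled libraries. It was 1.63-fold higher in PV-titled libraries (log2 0.71, SE 0.04, adjusted p = 1.61e-29), with 54 of 55 above the C-titled median. Hars2 lies head to head with Hars on the opposite strand, and the shared bases are 4.56% of the exons of Hars2 and 7.97% of those of Hars. The neighbours thus differed in opposite directions. Reads of the shared bases cannot be told apart without the strand setting of the counting, which is not given in the sources used here.

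Rars2 (ENSMUSG00000028292, chromosome 4, 34614957 to 34660167), the mitochondrial arginine enzyme, stood at 27.51, 38.86 and 56.42 against 13.82, 27.36 and 58.94 CPM (log2 0.49, SE 0.05, adjusted p = 9.09e-16). The median of the C-titled group was exceeded by 55 of 55 PV-titled libraries, although the highest C-titled library exceeded them. Vars2 (ENSMUSG00000038838, chromosome 17, 35655634 to 35667592), for valine, stood at 1.731, 24.48 and 39.52 against 6.931, 17.24 and 26.64 CPM (log2 0.51, SE 0.08, adjusted p = 8.75e-09). Aars2 (ENSMUSG00000023938, chromosome 17, 45506841 to 45520843), for alanine, stood at 26.44, 44.02 and 78.84 against 14.45, 35.54 and 45.92 CPM (log2 0.37, SE 0.05, adjusted p = 9.76e-10). In Vars2 and Aars2 the libraries overlapped widely, with 45 and 47 of 55 PV-titled libraries above the C-titled median. The members with the largest p were Ears2 for glutamate (log2 0.00, SE 0.08), Iars2 for isoleucine (-0.02, SE 0.04) and Cars2 for cysteine (0.03, SE 0.05). Without scaling all 3 were higher (0.19, 0.18 and 0.23). Iars2 shares 22.9% of its exon bases with Rab3gap2 on the other strand.

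Lars2 (ENSMUSG00000035202, chromosome 9, 123366927 to 123462666), the mitochondrial leucine enzyme, varied most between libraries of 1 prefix. It stood at 22.53, 146.5 and 463.2 CPM in PV-titled against 28.81, 290.9 and 1392 CPM in C-titled libraries, a 48.3-fold range in the latter. Both C-titled extremes and the lowest PV-titled value came from libraries that stand apart. Among the other C-titled libraries Lars2 ran from 98.06 to 824.9 CPM. Its log2 level had an SD of 0.76 over PV-titled and 0.94 over C-titled libraries, where the median over members was 0.31 and 0.20. The difference between prefixes was a log2 of -1.06 (SE 0.12, adjusted p = 3.27e-14) and held in both ranges of library numbers (-0.96 and -1.16). Within a prefix the second range was higher, with medians of 114 and 207.09 CPM in the first and second range of PV-titled libraries and of 224.06 and 380.1 CPM in the C-titled group.

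Other rows of the table, chosen after this spread was seen, varied with Lars2. Gm15564, an antisense RNA annotated on chromosome 16, correlated with Lars2 over log2(CPM + 0.5) with r = 0.988 and rho = 0.987 in 55 PV-titled libraries and r = 0.997 and rho = 0.995 in 58 C-titled libraries. For each the permutation p over 100000 shuffles was 1e-05, the smallest they can give, and 1e-05 after adjustment over the 6 relations computed. Without the 2 libraries farthest from the median r was 0.985 and 0.997, and within the number ranges it was 0.977 and 0.986 for PV-titled and 0.994 and 0.997 for C-titled libraries. A stretch of 72 bases of the Lars2 transcript, from base 3278 to 3349 of 3894, is 98.6% identical to Gm15564. Gm23935, a miRNA entry on chromosome 16, had r = 0.979 and 0.971 in PV-titled and C-titled libraries (rho = 0.981 in both), and Gm42418, a long noncoding RNA on chromosome 17, r = 0.858 and 0.926 (rho = 0.817 and 0.94), each with a permutation p of 1e-05. The shuffles crossed the ranges of library numbers, and no p here allows for the choice of these rows from the whole table. The p-values are therefore not read as a test of the relation. These values describe how the rows vary together, and what shares reads with Lars2 was not tested.

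**Figure D3:**
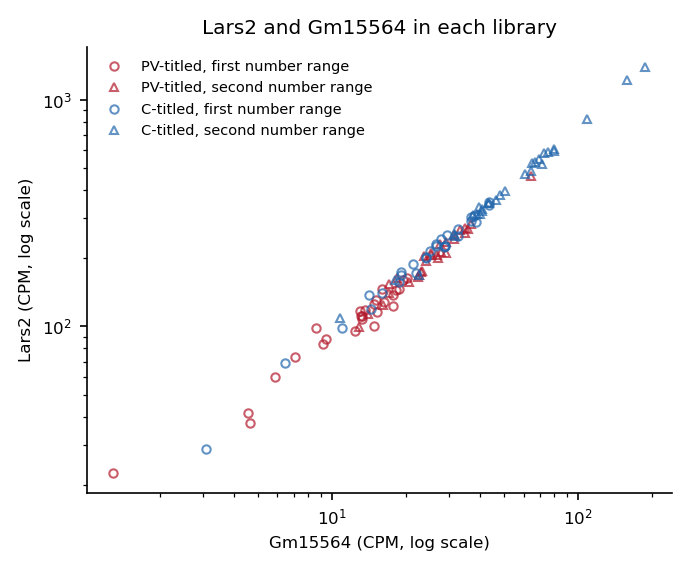
CPM of Lars2 (y axis, log scale) against CPM of Gm15564 (x axis, log scale) in each library, with circles for the first and triangles for the second range of library numbers. The points follow 1 line in both prefixes, with r of 0.988 and 0.997.

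Lars2 also set the summed level of the mitochondrial enzymes. The sum over 14 members ran at 410.6, 543.3 and 855.8 CPM in PV-titled against 365.2, 612.1 and 1668 CPM in C-titled libraries. The lowest and highest C-titled sums came from libraries that stand apart. Without Lars2 the sum ran at 311.8, 392.6 and 493 against 258.9, 341 and 387.2 CPM, so the order of the medians turned. The sum over the 20 cytosolic members was 1430, 1664 and 1961 CPM in PV-titled against 1864, 2304 and 2782 CPM in C-titled libraries. These sums are not per length and had no test.

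Levels per kilobase of exon allow enzymes to be set side by side. In both prefixes Hars, Nars, Gars and Sars held the first 4 places, in C-titled libraries with 83.5 ± 8.37 (SD, n = 58), 81.1 ± 9.19, 58.3 ± 5.85 and 48.9 ± 3.58 CPM per kilobase. Hars and Nars differed there by less than their SD. In PV-titled libraries the order was Nars (49.9 ± 7.95, SD, n = 55), Hars (45.003 ± 6.78), Sars (40.8 ± 5.62) and Gars (33.2 ± 5.79), followed by Mars1 (30.2 ± 5.22). Of these neighbours Sars and Gars lay further apart than their SD, and the others did not. With the longest transcript as the length Nars came first in both prefixes, and Lars2 took place 5 among PV-titled and 3 among C-titled libraries. The lowest were Mars2, at 1.32 ± 0.423 and 1.08 ± 0.172 CPM per kilobase in PV-titled and C-titled libraries, and Ears2, at 1.67 ± 0.735 and 1.64 ± 0.293.

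For 13 pairs of enzymes for the same amino acid the cytosolic gene was the higher per kilobase in 10 pairs among PV-titled and 11 among C-titled libraries. The median log2 ratio was 1.64 and 1.78. For histidine the log2 ratio of Hars to Hars2 was 1.73 ± 0.39 (SD) over PV-titled against 3.31 ± 0.21 over C-titled libraries, and the highest PV-titled library (2.67) lay below the lowest C-titled one (2.96). For arginine the ratio of Rars to Rars2 was -0.44 ± 0.44 against 0.76 ± 0.20, so that the mitochondrial gene was the higher in PV-titled libraries on average and the cytosolic gene in C-titled ones. For asparagine the ratio was 3.71 ± 0.55 against 4.75 ± 0.26, for alanine 0.75 ± 0.50 against 1.78 ± 0.26 and for tyrosine 0.05 ± 0.39 against 0.77 ± 0.18. The ratio for methionine, 4.59 ± 0.58 against 4.35 ± 0.34, differed by less than the spread between libraries, as did that for isoleucine, -0.02 ± 0.39 against -0.17 ± 0.23. Valine (1.37 ± 0.71 against 1.46 ± 0.32), serine (3.02 ± 0.40 against 3.32 ± 0.29) and cysteine (1.64 ± 0.40 against 1.80 ± 0.25) also overlapped. Against Fars2, Farsb stood at 2.74 ± 0.36 and 3.15 ± 0.21 and Farsa at 2.24 ± 0.51 and 1.59 ± 0.23. The leucine ratio, at -0.57 ± 0.81 and -1.62 ± 1.0, was below 0 in both prefixes like that of isoleucine, and carries the spread of Lars2. With the longest transcript as the length 2 of the 13 ratios moved by over 1.5 times, tyrosine to 0.91 and 1.64 and leucine to -1.65 and -2.70.

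**Figure D4:**
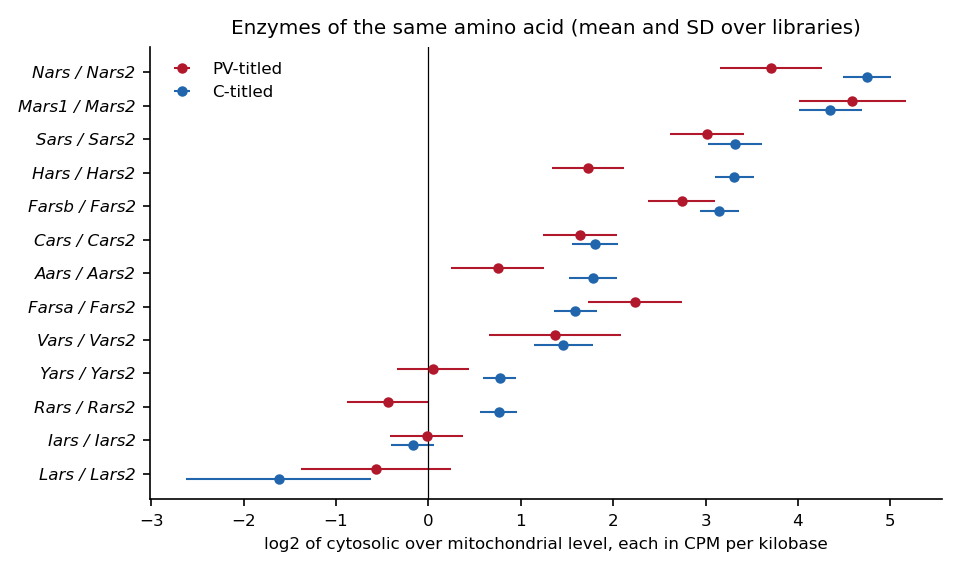
Log2 ratio of the cytosolic to the mitochondrial enzyme of the same amino acid, each in CPM per kilobase (x axis), as mean and SD over 55 PV-titled (red) and 58 C-titled (blue) libraries. The histidine ratio is 1.73 and 3.31, the arginine ratio -0.44 and 0.76, and the leucine ratio is below 0 in both.

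Of 9 mitochondrial translation factors 3 were higher and 5 lower in PV-titled libraries (median log2 -0.21), beside 44.3% and 43.2% of all genes. Gfm2, which recycles mitochondrial ribosomes, was at a log2 of 1.86 (SE 0.07) and the initiation factor Mtif2 at 0.73 (SE 0.05), while the elongation factors Tufm and Tsfm were both at -0.65 (SE 0.05). Mitochondria make glutamine tRNA by amidation of a glutamate-charged precursor, and the 3 amidation genes Gatb, Gatc and Qrsl1 were lower by small amounts (-0.16, -0.13 and -0.21). Mtfmt, which formylates the initiator tRNA, was higher (0.46, SE 0.06). Of 4 genes for proofreading or synthetase-like proteins 3 were lower, among them the deacylase Dtd1 (-1.20, SE 0.05) and Tarsl2, a further threonine enzyme (-0.74, SE 0.06), and Prorsd1 was higher (2.36, SE 0.11).

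Over the day few synthetases passed a test for rhythm, and the median of each set moved by small amounts. A rhythm was tested as a 24 h cosine, with the amplitude taken from the mean to the peak on the log2 scale. In PV-titled libraries 2 of 34 members passed, where 3.10% of all genes did, and the same 2 without the 8 libraries that stand apart, where 4.06% did. In C-titled libraries 5 of 34 passed, where 27.0% of all genes did. The PV-titled group had lower totals and lower correlations at the median, and their part in these unequal shares was not tested. The median amplitude of the cytosolic members was 0.05 and 0.07 in PV-titled and C-titled libraries, that of the mitochondrial members 0.09 and 0.08, and that of all genes 0.11 and 0.12. Across the 6 times the median deviation of the cytosolic members from their own means stayed between -0.05 and 0.06 for PV-titled and between -0.04 and 0.03 for C-titled libraries. For the mitochondrial members it stayed between -0.03 and 0.10, the latter at ZT10, and between -0.04 and 0.04. At ZT14 16 of 20 cytosolic members lay above their own mean in C-titled libraries, at a median deviation of 0.03.

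Sars (ENSMUSG00000068739, chromosome 3, 108424865 to 108445209), the cytosolic serine enzyme, was the member with a rhythm in PV-titled libraries that differed from C-titled ones. In PV-titled libraries its lowest, median and highest levels were 222.21, 240.95 and 257.71 CPM at ZT2, 195.58, 223.42 and 270.9 at ZT6 and 196.12, 222.76 and 262.5 at ZT10. They were 163.08, 190.86 and 232.93 CPM at ZT14, 166.37, 187.13 and 221.77 at ZT18 and 155.72, 191.08 and 209.35 at ZT22. The medians were thus higher in the light phase. The libraries of ZT6 and ZT10 overlapped with those of each dark time, while those of ZT2 overlapped with ZT14 but not with ZT18 or ZT22. In C-titled libraries the medians were 250.24, 242.52, 263.42, 253.27, 258.73 and 247.87 CPM in the same order of times, without such a change. The amplitude was 0.17 (SE 0.03) in PV-titled libraries with a peak at ZT6.01, 1.27-fold from trough to peak (adjusted p = 0.00316), and 0.05 (SE 0.02) in C-titled libraries (adjusted p = 0.158). The difference of rhythm passed (adjusted p = 0.00206), as it did for 1 of 34 members and 0.559% of all genes. Without the 8 libraries it passed again for Sars alone (adjusted p = 0.0229), beside 0.138% of all genes.

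The gap between prefixes in Sars thus changed with time. The mean log2 difference was -0.05 (SE 0.05) at ZT2, -0.07 (SE 0.07) at ZT6 and -0.23 (SE 0.07) at ZT10, and it was -0.37 (SE 0.06) at ZT14, -0.46 (SE 0.05) at ZT18 and -0.39 (SE 0.05) at ZT22. At ZT18 9 of 9 and at ZT22 10 of 10 PV-titled libraries lay below the lowest C-titled library of that time. Within each range of library numbers the PV-titled amplitude was again 0.17, with peaks at ZT6.14 and ZT5.83, but neither range passed alone (adjusted p = 0.498 and 0.203). Without the libraries numbered replicate 3 no member passed for the difference of rhythm or for rhythm in PV-titled libraries. The share of all genes that passed in that setting is not given here.

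Rars2 was the other member to pass in PV-titled libraries (amplitude 0.18, SE 0.04, peak ZT6.94, adjusted p = 0.0382). Its medians were 42.2, 46.4, 41.6, 38.6, 33.5 and 35.9 CPM from ZT2 to ZT22, and the lowest and highest libraries overlapped between all times. Rars2 did not pass with time as a factor (adjusted p = 0.24), in either range of library numbers (0.7 and 0.155), or without the libraries numbered replicate 2, 3, 4 or 5 (0.155, 0.157, 0.197 and 0.0861). In C-titled libraries the peak was at ZT7.80 with an amplitude of 0.15 (adjusted p = 0.112, and 0.0183 without the 8 libraries), and the difference of rhythm did not pass (adjusted p = 0.952). The next members by p in PV-titled libraries did not pass: Hars2 (amplitude 0.14, adjusted p = 0.282), Fars2 (0.17, 0.317), Pars2 (0.25, 0.372) and Farsb (0.10, 0.384).

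In C-titled libraries the cytosolic and mitochondrial valine enzymes peaked at about the same time. Vars (ENSMUSG00000007029, chromosome 17, 35000987 to 35016322) had medians of 42.5, 50.8, 52.9, 54.0, 48.3 and 43.9 CPM from ZT2 to ZT22 (amplitude 0.19, SE 0.04, peak ZT12.3, adjusted p = 0.000757). Vars2 had medians of 16.1, 17.5, 18.9, 18.8, 17.4 and 15.7 CPM (amplitude 0.19, SE 0.06, peak ZT12.5, adjusted p = 0.0219). Both were higher around the change from light to dark and lower at ZT2 and ZT22, and they passed without the 8 libraries (peaks ZT11.0 and ZT10.8). Dars (ENSMUSG00000026356, chromosome 1, 128363707 to 128417368), the aspartate enzyme, peaked in the early light phase, with medians of 83.7, 77.0, 71.5, 69.7, 70.0 and 77.9 CPM (amplitude 0.13, SE 0.03, peak ZT2.55, adjusted p = 0.0121). With time as a factor Vars passed and Vars2 and Dars did not. Vars2 did not pass without replicate 2, 3 or 4, nor Dars without replicate 2 or 3, while Vars passed with each replicate number left out.

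Iars (amplitude 0.17, SE 0.05, peak ZT18.7, adjusted p = 0.0179) and Aars (0.07, SE 0.02, peak ZT12.0, adjusted p = 0.0419) passed with all libraries but not without the 8 that stand apart (adjusted p = 0.0844 and 0.0551). Hars was the next by p (amplitude 0.07, adjusted p = 0.0596). Without the 8 libraries 6 members passed, beside 21.98% of all genes, with Farsb, Aars2 and Rars2 in addition to Vars, Vars2 and Dars. The peaks of the 5 members called with all libraries lay between ZT2.55 and ZT18.7, with no common phase. In PV-titled libraries the same 5 genes had amplitudes of 0.10 (Vars), 0.05 (Vars2), 0.03 (Dars), 0.11 (Iars) and 0.03 (Aars), and for none of them did the difference of rhythm pass. Within a single range of library numbers 1 member passed in each, Dars in the first and Vars in the second. The shares of all genes that passed in a single range are not given here.

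**Figure D5:**
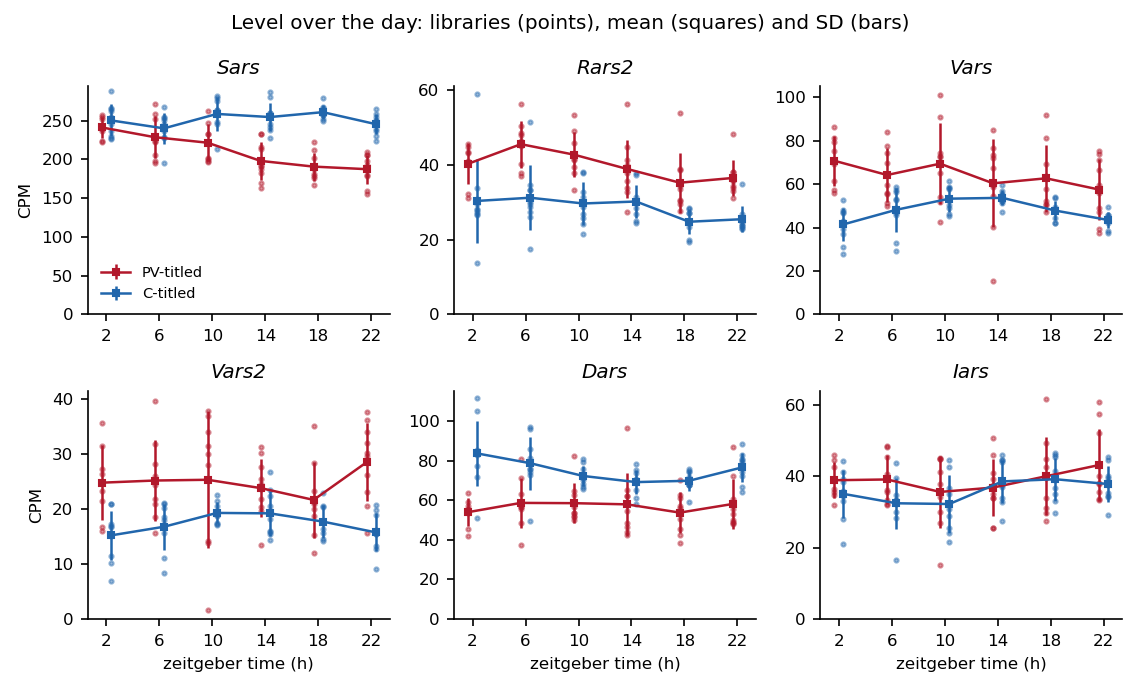
CPM (y axis) of 6 enzymes at each zeitgeber time (x axis, hours) in PV-titled (red) and C-titled (blue) libraries, with points for libraries, squares for means and bars for SD. Sars falls from a median of 240.95 to 191.08 CPM in PV-titled libraries while it stays between 242.52 and 263.42 CPM in C-titled ones.

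Males and females did not differ in a member that passed the test. With edgeR 0 of 34 members passed in either prefix, where 0.0307% of all genes passed among PV-titled libraries and 0.184% among the C-titled ones, and 1 member in each had an unadjusted p under 0.05, beside 2.77% and 7.61% of all genes. They were Qars in PV-titled libraries (males minus females 0.29 in log2, adjusted p = 0.299) and Hars in C-titled libraries (0.10, adjusted p = 0.307). With DESeq2 the count was 0 in both prefixes as well. Without the 8 libraries Hars alone of the members passed in C-titled libraries (0.11, adjusted p = 0.0499), beside 0.698% of all genes.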

How the data were processed

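RNA from anti-HA pull-downs was made into cDNA with SMART-seq HT and libraries with Nextera Flex, per the labels' protocols. The authors deposited 1 table of raw counts per gene, and per the submitters' processing notes FastQC, HTSeq, DESeq2 and the build GRCm38 were used. The aligner, the annotation and tool versions were not given in the sources used here. Of 114 libraries 113 were used, since 1 column carries a sex that its title does not. The labels do not say whether libraries come from separate animals, so p-values measure the spread between libraries. Symbols, positions and exon lengths are from GENCODE vM21.

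Counts were tested with edgeR 4.0.16 (R 4.3.3): TMM scaling, filterByExpr, quasi-likelihood tests, Benjamini-Hochberg adjustment over all genes of a test, threshold 0.05. Prefix was fitted with time, sex and library-number range, and rhythm within a prefix by 24 h cosine and sine with sex and range. CPM follow TMM scaling, and levels per kilobase use merged exons. Intervals for counting error are not given, as reads without molecular identifiers are not separate molecules. Values in full are given for the 5 members of each kind with the smallest and the 3 with the largest p for prefix, the 6 with the smallest p for rhythm in each prefix, and up to 4 genes of each further list. The members and lists were chosen with earlier results of these data known. Fits were tested on simulated counts. Alternatives were other scaling, no filter, DESeq2 1.42.0, left-out replicates, subsets and a replicate block.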

Additional observations from a re-analysis of the deposited data

Results flagged for a closer look

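Sars had a rhythm that differed between PV-titled and C-titled libraries (adjusted p = 0.00206 for the products of prefix with cosine and sine). In 78 groups of a named member, a prefix and a time, 5 held a library far from the others. Chance gives about 1 in 20, so the count in these groups is near what chance gives. These groups do not cover all members, and groups of different genes share libraries and are not independent. Rars2 in PV-titled libraries had a highest library of 53.9 CPM at ZT18, with the others from 27.8 to 38.9 CPM, and of 48.5 CPM at ZT22, with the others from 31.1 to 38.2 CPM. Hars2 in PV-titled libraries had a highest library of 107 CPM at ZT10, with the others from 53.3 to 72.0 CPM, and this library is among the 8 that stand apart. Dars in C-titled libraries had a lowest library of 49.7 CPM at ZT6, with the others from 72.7 to 97.2 CPM and also among the 8, and of 59.2 CPM at ZT18, with the others from 67.5 to 75.8 CPM.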

How the results depend on the processing

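The directions of the cytosolic counts held under other scaling, no filter, DESeq2, left-out replicates and subsets of libraries, apart from the 2-fold test, under which 0 cytosolic members were lower, 0 higher, and 0 mitochondrial members lower and 0 higher. Without TMM scaling 1 mitochondrial member was lower and 11 higher, and the log2 difference turned to 0.08 for Cars, 0.19 for Ears2, 0.02 for Fars2, 0.18 for Iars2 and 0.13 for Yars2; that of Iars turned to -0.05 in the first number range, where 1 mitochondrial member was lower. The shares of all genes called without TMM scaling, in subsets, with time as a factor or with a replicate block are not given here. The counts of members in these settings are therefore not read as particular to the synthetases. Fewer members passed for rhythm in each number range and each sex alone. In PV-titled libraries 0 members passed in the first range, 0 in the second, 0 in females alone, 0 in males alone and 1 with time as a factor, and 0 to 2 with a replicate number left out. In C-titled libraries 1, 1, 0, 1 and 1 passed in the same settings, and 1 to 5 with a replicate number left out. For the difference of rhythm 0 passed in the first range, the second range, females and males alone, and 0 to 1 with a replicate number left out. With the 8 libraries left out, which was chosen after seeing the data, sex called 1 member in C-titled libraries. Subsets hold fewer libraries, while the fit with time as a factor kept all of them, and the cause of these changes was not tested. The title digits were not taken to pair libraries: deviations of libraries with the same digit and other prefix had a median correlation of 0.0836, with 46.9% over 0.1, against -0.0174 and 25.9% for other digits. Within a prefix these were 0.149 and 58.7% for the same digit in other groups, against -0.0433 and 25.5%. The deviations are from group means that leave out the number range, and most digits fall within 1 range. Digit and range therefore cannot be told apart in these correlations. With the digit as a replicate block 29 members passed for prefix (14 cytosolic lower, 6 higher, 3 mitochondrial lower, 6 higher), 2 for rhythm among PV-titled and 6 among C-titled libraries, 1 for the difference and 0 for sex. With the longest transcript as the length the median cytosolic to mitochondrial log2 ratio was 1.51 and 1.64 in the 2 prefixes, and 2 pairs, tyrosine and leucine, moved by over 1.5 times. Members under 10 CPM, such as Ears2, rest on fewer counts and vary more between libraries.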

Other observations

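Genes that supply amino acids or respond to their shortage are read beside 44.3% of all genes higher and 43.2% lower in PV-titled libraries. Asns, which makes asparagine, was lower in PV-titled libraries (log2 -1.05, SE 0.04), at a median of 117.1 CPM against 247.1 CPM, while Phgdh, the entry enzyme of serine synthesis, was higher (2.52, SE 0.09). Of 7 genes of amino acid synthesis 2 were higher and 3 lower. Of 11 amino acid transporters 7 were higher and 4 lower: Slc1a5, a glutamine transporter (2.75, SE 0.16), Slc7a11, the cystine exchanger (2.32, SE 0.09), and Slc7a6 (1.42, SE 0.06) were higher, and Slc3a2, the shared heavy chain of several exchangers, was lower (-1.05, SE 0.04). Phgdh, Slc7a11 and Slc1a5 are also known from astrocytes, whose markers were higher in PV-titled libraries, and their part was not tested.

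Among 11 ATF4 and stress factors 5 were higher and 3 lower, with Atf4 itself at a log2 of 0.60 (SE 0.06), Nupr1 at 2.70 (SE 0.11), Ddit3 at 0.35 (SE 0.04) and Chac1 at -0.46 (SE 0.08). Eif2ak4, which encodes the kinase GCN2 that senses uncharged tRNA, was higher (1.48, SE 0.07), as was its partner Gcn1l1 (0.74, SE 0.05), while Eif2ak1 (-0.69, SE 0.04) and Eif2s1, the subunit of eIF2 that these kinases modify (-1.06, SE 0.06), were lower. Over the day Slc38a2, a neutral amino acid transporter, passed in both prefixes, with an amplitude of 0.20 in each and peaks at ZT16.7 and ZT18.5 (adjusted p = 0.0353 and 0.000217). Slc1a5 had an amplitude of 0.77 in C-titled libraries (peak ZT14.2, adjusted p = 9.44e-05) at a median of 1.69 CPM, and Herpud1, of the endoplasmic reticulum stress response, one of 0.45 in PV-titled libraries (peak ZT13.5, adjusted p = 0.0295).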
